A study of Mus musculus with 21 samples.

Results

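Lgr5GFP high cells and Lgr5GFP negative cells of the mouse stomach corpus were compared in mice that had received tamoxifen, gene by gene, on 8 of the 21 microarrays of the study. The 8 arrays are the 4 titled as injected high and the 4 titled as injected negative. Each gene was represented by 1 row of the deposited table, the row with the highest mean over the 21 arrays among rows that name exactly 1 gene, which gave 22180 genes.

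Total RNA was profiled from corpus cells separated by flow cytometry into high, low and negative populations, according to how brightly a green fluorescent reporter of the Lgr5 gene shone. Tamoxifen was injected at a dose of 0.27 mg/g, with cells taken 24 hours later, and control mice were left uninjected. Both groups compared here therefore came from injected, tamoxifen-exposed animals, and the uninjected high and negative populations (3 arrays each) serve as the same comparison without the drug. The labels name no strain, age, sex, further allele or number of animals. The design text calls the replicates technical, from individual sorting runs, so the p-values measure the spread between sorted samples. The spread was pooled within the 6 groups of all 21 arrays, low and control samples included, and not taken from the compared arrays alone. The titles also carry a number, which the labels do not explain and which may mark the sorting run: 2, 4, 28 and 29 for the injected high arrays (replicates 1 to 4) and 1, 2, 4 and 28 for the injected negative arrays (replicates 1 to 4). Where a gene named here lost its call in a fit with this number as a block, the blocked value is given. Blocked counts are given for some lists and comparisons, and the other counts may also have changed.

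The glands of the corpus hold surface pit mucous cells, proliferating isthmus cells, mucous neck cells, acid-secreting parietal cells, and, at the base, chief cells that store digestive enzymes. Scattered among them are hormone-producing endocrine cells and chemosensory tuft cells. Lgr5 encodes a receptor for R-spondins, which raise Wnt signalling, and in the corpus it marks a subset of chief cells at the gland base. High doses of tamoxifen are known to injure parietal cells.

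Values are log2 signal as the authors deposited it, and differences are high minus negative on that scale with the standard error (SE) of the model. A gene was called when its Benjamini-Hochberg adjusted p from limma, over all 22180 genes, was under 0.05. As a guide to background, 95% of the 1105 olfactory receptor genes had a mean at or below 4.16. Where the dimmer group lay at or under that level, the fold is given as a lower bound counted from it. Array medians ran from 3.95 to 4.25 over all 21 arrays, and correlations between replicate arrays were 0.944 to 0.961 among the high and 0.963 to 0.982 among the negative samples.

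Lgr5, the gene whose reporter defined the gates, followed the labels. Its log2 signal was 8.05, 8.42, 8.74 and 8.53 in the 4 high samples and 4.42, 4.81, 4.56 and 4.58 in the 4 negative samples, a difference of 3.84 ± 0.19 (SE; 14.3-fold). Every low sample lay between them, at 6.54, 7.01, 6.75 and 6.49. Because the cells were sorted on this reporter, the difference is a check on the sort and not a result. Pgc, the pepsinogen C of chief and neck cells, was bright in both groups, at 13.26 to 13.42 in the high samples and 13.07 to 13.30 in the negative samples. The highest value of the deposited table was 13.55.

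Of the 22180 genes, 738 were higher (3.33%) and 1545 lower (6.97%) in high than in negative cells. The 4 high and 4 negative arrays did not overlap for 2425 genes (10.9%), among them 1615 of the 2283 called genes. A difference of at least 2-fold was reached by 338 of the higher and 757 of the lower genes. The median difference over all genes was 0.05. Without negative replicate 3 the counts fell to 474 higher and 954 lower genes. A fit on the tamoxifen high and negative groups alone, with the spread taken from those arrays only, gave 267 higher and 671 lower genes. With the title number as a block, 940 genes were higher and 1535 lower, and these included 580 of the 738 and 1234 of the 1545. These are bulk measurements, so fewer cells of a type and less RNA per cell cannot be told apart in any difference given here.

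Tuft cell genes had the highest median difference of the 35 gene lists examined. Of 13 measured tuft cell markers, 10 were called higher, and the median difference over the 13 was 3.26 against 0.05 over all genes. Dclk1, a kinase of the doublecortin family and a standard tuft cell marker, stood at 8.51, 10.22, 11.02 and 10.93 in the high samples and at 6.08, 5.15, 5.26 and 6.36 in the negative samples. That is a 22.0-fold difference (4.46 ± 0.49, limma adjusted p = 8.3e-06), and the groups did not overlap. High replicate 1 was the lowest of the high samples for Dclk1 and for the other tuft cell markers named here as called. Pou2f3, the transcription factor required for tuft cells, was at 7.0, 8.56, 10.03 and 9.49 against 5.13, 4.33, 4.65 and 5.49 (3.87 ± 0.54, adjusted p = 9.1e-05). Trpm5, the cation channel of taste-type signalling, was 13.9-fold higher, Alox5, the 5-lipoxygenase that starts leukotriene synthesis, 14.7-fold, and Ltc4s, which makes leukotriene C4, 9.59-fold. The 3 markers that did not pass, named after their values were seen, were Gnat3 (1.80, adjusted p = 0.073), Il25 (0.75, adjusted p = 0.092) and Chat (0.83, adjusted p = 0.14).

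The mean log2 signal of the 13 tuft markers was 7.06, 8.55, 9.61 and 9.56 in high replicates 1 to 4 and 5.93, 5.55, 5.51 and 6.29 in the negative samples. In the low samples it was 5.47, 5.90, 6.44 and 5.37, overlapping the negative range, and 11 of the 13 markers were called higher in high than in low cells. Sh2d7 and Sh2d6, which encode SH2 domain proteins, Spib, an Ets-family transcription factor, and Strip2, a striatin-interacting protein, rose over similar ranges, from 15.1-fold for Sh2d6 to 20.5-fold for Spib. Vav1, a guanine nucleotide exchange factor (4.01), Pik3r5, a regulatory subunit of phosphoinositide 3-kinase gamma (3.99), and Kctd12, an auxiliary subunit of GABA-B receptors (3.86), completed this set. All of these were at their lowest high-sample value in replicate 1. The largest differences were named only among genes whose groups do not overlap, so their lack of overlap is not a result.

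Several of these genes are also active in blood cells, so the immune cell markers are given beside them. Ptprc, which encodes the leukocyte antigen CD45, was at 4.54, 5.64, 7.89 and 8.86 in the high samples and 3.74, 4.19, 4.99 and 4.73 in the negative samples (2.32 ± 0.65, adjusted p = 0.026). The groups overlapped, and the call was lost without high replicate 3, high replicate 4, negative replicate 1 or negative replicate 2, and in the blocked fit (1.79, limma adjusted p = 0.072). Of 18 measured immune cell markers, 1 (Ptprc) was higher and 5 were lower in high cells, against 0 and 8 in the blocked fit. The lower markers were the macrophage gene Cd68 (-1.53), the signalling adaptors Tyrobp (-2.33) and Fcer1g (-1.58), Cd52 (-1.05) and, named after its value was seen, the lysozyme gene Lyz2 (-1.84, a call lost without high replicates 1, 2 or 4 or negative replicates 2, 3 or 4). The T cell receptor component Cd3e (3.27 and 2.93), the B cell receptor component Cd79a (3.32 and 3.24) and the macrophage gene Adgre1 (3.87 and 3.68) had high and negative means below the background guide; these 3 were named after their values were seen. The mean signal over the immune list was 3.97 to 4.32 in high and 4.06 to 4.81 in negative samples. In control mice Ptprc was at 9.8, 9.1 and 8.25 in high and 5.34, 4.18 and 5.24 in negative samples. That is a difference of 4.13 (limma adjusted p = 0.00078). Of the immune markers, 1 was higher and 2 were lower in control high cells.

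**Figure D1:**
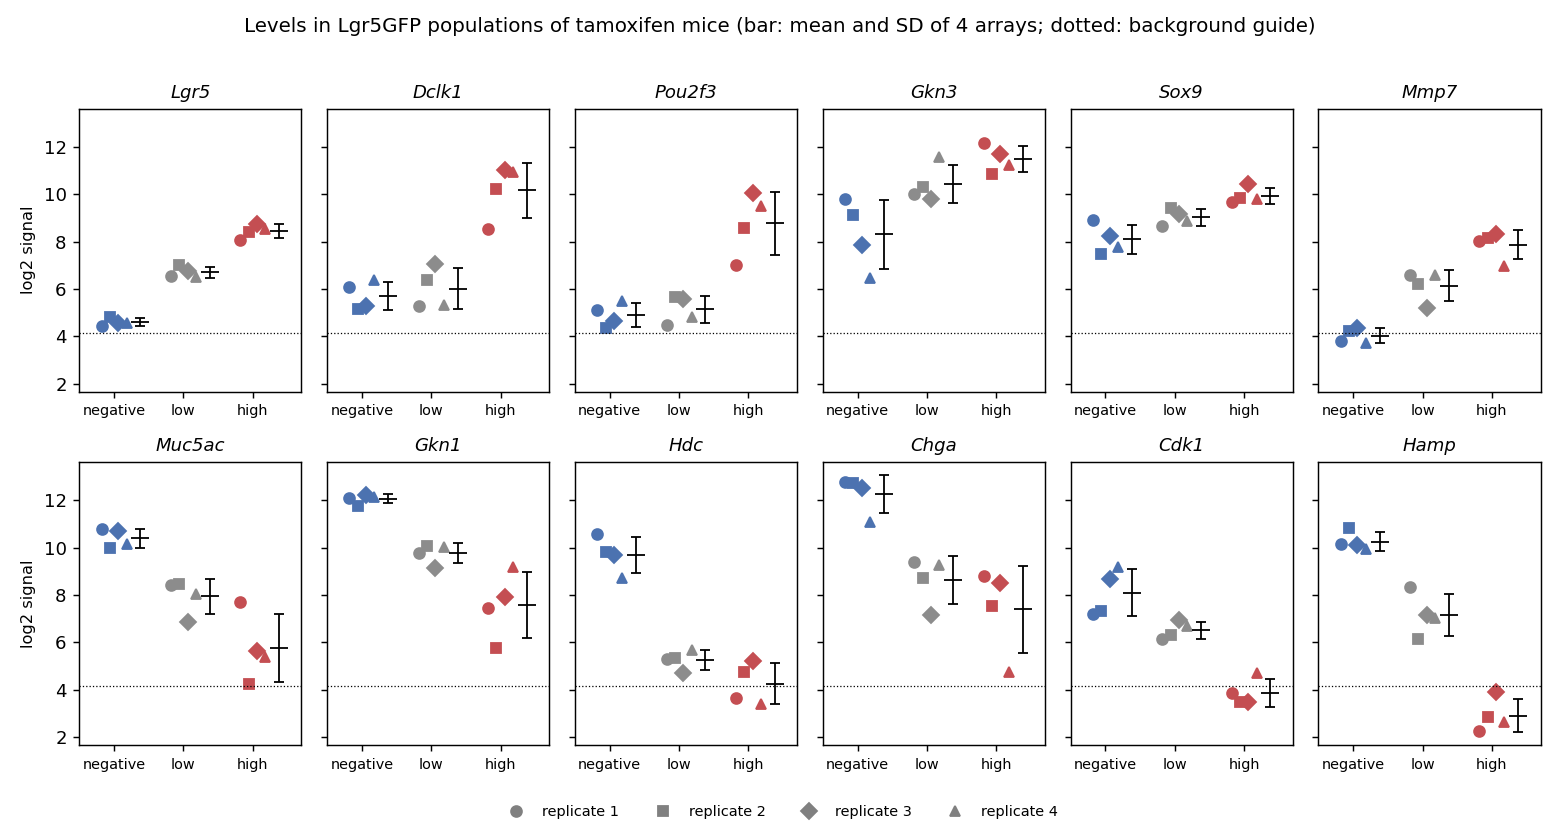
Log2 signal (vertical axis) of 12 genes in the negative, low and high populations of tamoxifen mice, 1 symbol per array (the symbol marks the replicate), with the mean and SD of 4 arrays beside them and the background guide of 4.16 as a dotted line. Lgr5, Dclk1, Pou2f3, Gkn3, Sox9 and Mmp7 are higher in high than in negative cells, and Muc5ac, Gkn1, Hdc, Chga, Cdk1 and Hamp are lower; the Dclk1 low samples lie at 5.28 to 7.06, below every high sample.

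Chief cell genes differed in part. Of 17 measured chief cell markers, 5 were called higher and 1 lower, with a median of 0.17 beside 0.05 over all genes. The median was 0.10 without high replicate 4 and 0.11 without negative replicate 1, and the counts were 6 and 2 without high replicate 1 and 3 and 1 without high replicate 4. In the blocked fit 4 were higher and 2 lower. Cblif, which encodes gastric intrinsic factor, was at 12.23, 12.54, 12.37 and 12.77 in high and 11.19, 11.26, 11.06 and 11 in negative samples (1.35 ± 0.15, adjusted p = 1.2e-05, 2.54-fold). All 4 high samples were above all 4 negative samples, and the low samples, at 12.15 to 12.54, were with the high ones. Pnliprp2, a pancreatic lipase-related enzyme, was 3.48-fold higher and Chia1, an acidic chitinase, 1.74-fold higher. Copz2, a coat protein subunit named after its value was seen, differed by 1.16 (adjusted p = 0.015, lost without high replicate 2 or 4). Ctrb1, which encodes chymotrypsinogen, was the lower member (-2.16 ± 0.34, adjusted p = 0.00032). Pgc differed by 0.17 ± 0.11 (adjusted p = 0.37).

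Bhlha15, the transcription factor Mist1 of mature secretory cells, was at 5.04, 5.59, 6.44 and 7.29 in high and 4.76, 4.92, 4.86 and 5.12 in negative samples (1.17 ± 0.33, adjusted p = 0.027). The groups overlapped through high replicate 1. The call was lost without high replicate 3, high replicate 4 or negative replicates 1, 2 or 3, and the difference was 0.77 without high replicate 4. The blocked Bhlha15 difference was 0.94 (limma adjusted p = 0.081). Mug1, a murinoglobulin of the alpha-2-macroglobulin family of protease inhibitors, had the largest positive difference of all the genes named here. It was at 8.23, 9.53, 8.35 and 8.79 in high against 5.76, 3.18, 4.46 and 3.44 in negative samples (4.51 ± 0.45, adjusted p = 2.2e-06). Unlike the tuft markers, Mug1 was at 8.45 in the low population, and high and low cells differed by 0.28 ± 0.45 (adjusted p = 0.85).

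Mucous neck cell markers were in part higher in high than in negative cells. Of 11 measured, 4 were higher and 1 lower, with a median of 1.05, and 3 were higher and 1 lower in the blocked fit. Gkn3, a gastrokine of neck cells, was at 12.15, 10.85, 11.69 and 11.23 in high and 9.78, 9.13, 7.85 and 6.48 in negative samples (3.17 ± 0.53, adjusted p = 0.00048). A4gnt, the enzyme that caps the O-glycans of gland mucin, was 5.43-fold higher, Spdef, a transcription factor of mucous cells, 2.07-fold, and Aqp5, a water channel named after its value was seen, 3.36-fold. The Aqp5 call (adjusted p = 0.05 after rounding) was lost without high replicates 1, 3 or 4 or negative replicates 2, 3 or 4, and its difference of 1.75 became 1.15 without high replicate 1; the blocked adjusted p was 0.09. Muc6, the gland mucin itself, differed by 1.35 ± 0.59 (adjusted p = 0.17), and Tff2, the trefoil peptide secreted with it, by -0.61 ± 0.30 (adjusted p = 0.23). Wfdc2, a secreted whey acidic protein family member, was lower (-0.97, adjusted p = 0.014), a call lost without high replicate 2 or negative replicate 3. The mean signal of the list was 8.13 to 9.78 in high and 7.44 to 8.25 in negative samples, so the groups overlapped.

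Among Wnt target and stem cell genes, 11 of 25 measured were higher and 2 lower, with a median of 0.66. Lgr5 itself is a member. Sox9, a transcription factor of progenitors and gland bases, was at 9.66, 9.85, 10.42 and 9.79 in high and 8.90, 7.47, 8.22 and 7.78 in negative samples (1.83 ± 0.26, adjusted p = 9.8e-05, 3.56-fold). Nkd1, an inhibitor induced by Wnt signalling, was at least 3.51-fold higher, and Prom1, the membrane protein prominin-1, 2.62-fold. Rnf43, which removes Wnt receptors from the membrane, was 2.46-fold higher, and Runx1, a transcription factor of isthmus and blood progenitors, 2.33-fold. Rnf43 was named after its value was seen. Axin2, the most general Wnt target of the list, differed by 0.61 ± 0.21 and did not pass (adjusted p = 0.07), but passed in the blocked fit (0.64, adjusted p = 0.043).

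The 2 lower members of that list promote growth. Ccnd1, the cyclin D1 gene, was lower by -2.08 (adjusted p = 0.0025; named after its value was seen) and Myc by -1.08 ± 0.28 (adjusted p = 0.015). The Myc groups overlapped and its call was lost without high replicate 4 or negative replicate 1, and in the blocked fit (-0.72, limma adjusted p = 0.12). Cd44, a hyaluronan receptor and Wnt target, was at 10.24, 7.64, 8.71 and 6.80 against 7.77, 6.76, 7.63 and 6.4 (1.21 ± 0.61, adjusted p = 0.24). Of 32 Wnt ligands, receptors and secreted inhibitors, 1 was higher (Dkk3, 0.61) and 1 lower (Wnt4, -1.12), beside 3.33% higher and 6.97% lower over all genes. Both calls were lost when single arrays were left out: Dkk3 without high replicates 2, 3 or 4 or negative replicates 1, 3 or 4, and Wnt4 without high replicate 3 or negative replicates 1 or 3. Dkk3 also missed the threshold in the blocked fit (0.49, limma adjusted p = 0.12).

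Surface pit cell genes had the largest share of lower members among the cell type lists. Of 15 measured markers, 10 were lower, with a median of -1.29, and 9 were lower in the blocked fit. The mean signal of the list did not overlap between the groups (7.81 to 8.66 in high, 9.93 to 10.21 in negative samples). Muc5ac, the surface mucin, was at 7.70, 4.25, 5.65 and 5.39 in high and 10.80, 9.98, 10.68 and 10.14 in negative samples (-4.65 ± 0.51, adjusted p = 8.3e-06, 25.1-fold). Gkn1, a gastrokine of pit cells, was at 7.43, 5.77, 7.93 and 9.16 against 12.11, 11.77, 12.23 and 12.15 (-4.49 ± 0.46, adjusted p = 3.3e-06). For both genes every high sample was below every negative sample, while the high samples spread far more widely than the negative ones. Gkn2 differed by -4.77, the mucin-like gene Mucl3 by -3.58 and the trefoil factor Tff1 by -3.23. The 5 members that did not pass, named after their values were seen, were Capn8, Muc1, Foxq1, Fut2 and Lrrc26. The low samples lay between the others, at 9.13 to 9.34.

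Endocrine cell genes were also lower in high cells, with 11 of 20 measured members called and a median of -1.64. Hdc, the histidine decarboxylase of enterochromaffin-like cells, was at 3.64, 4.75, 5.22 and 3.41 in high and 10.57, 9.81, 9.68 and 8.72 in negative samples (-5.44 ± 0.39, adjusted p = 1.7e-08, 43.3-fold). Slc18a2, the vesicular transporter that loads histamine, was at least 54.0-fold lower (-5.94 ± 0.37). Chga, the granule protein chromogranin A, was at 8.81, 7.54, 8.49 and 4.75 against 12.76, 12.73, 12.50 and 11.09 (-4.87 ± 0.67, adjusted p = 8.1e-05). Ghrl, the ghrelin gene of X/A-like cells, was at 11.16, 7.76, 8.91 and 6.63 against 12.52, 12.84, 12.59 and 12.49 (-3.99 ± 0.81, adjusted p = 0.0026), and Pcsk1, a prohormone convertase, differed by -3.53. Hdc and Slc18a2, the genes of histamine cells, were thus near the background guide in high cells, while Chga and Ghrl stayed above it in every high sample and were highest in high replicate 1. Low cells were near the high cells for Hdc, at 5.26.

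Parietal cell genes gave no common direction. Of 20 measured, 5 were lower and 1 higher, with a median of -0.28. The median ran from -0.44 without high replicate 1 to -0.15 without high replicate 4 or without negative replicate 1. In the blocked fit it was -0.03, with 4 lower and 1 higher. Atp4b, the beta subunit of the proton pump, was at 5.01, 5.48, 8.59 and 5.42 in high and 10.14, 7.18, 8.14 and 8.67 in negative samples (-2.41 ± 0.60, adjusted p = 0.012). High replicate 3 lay inside the negative range, and the blocked difference was -1.64 (limma adjusted p = 0.052). Atp4a, the alpha subunit, was at 7.14, 8.89, 8.64 and 6.93 against 9.91, 8.01, 8.51 and 8.51 and did not pass (-0.84 ± 0.42, adjusted p = 0.23). Both subunits had their highest level of the 3 tamoxifen populations in low cells, at means of 10.81 for Atp4a and 10.49 for Atp4b. High cells were below low cells by -2.92 ± 0.42 for Atp4a (adjusted p = 0.00041) and -4.36 ± 0.60 for Atp4b (adjusted p = 0.00034). Cckbr, the gastrin receptor shared with histamine cells, was 6.06-fold lower than in negative cells, Car2, a carbonic anhydrase, 3.47-fold, Ezr, the ezrin gene, 2.38-fold and Cldn18, a gastric claudin, 1.45-fold. Kcnq1, a potassium channel of the acid-secreting membrane, was the member that rose (4.14-fold).

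**Figure D2:**
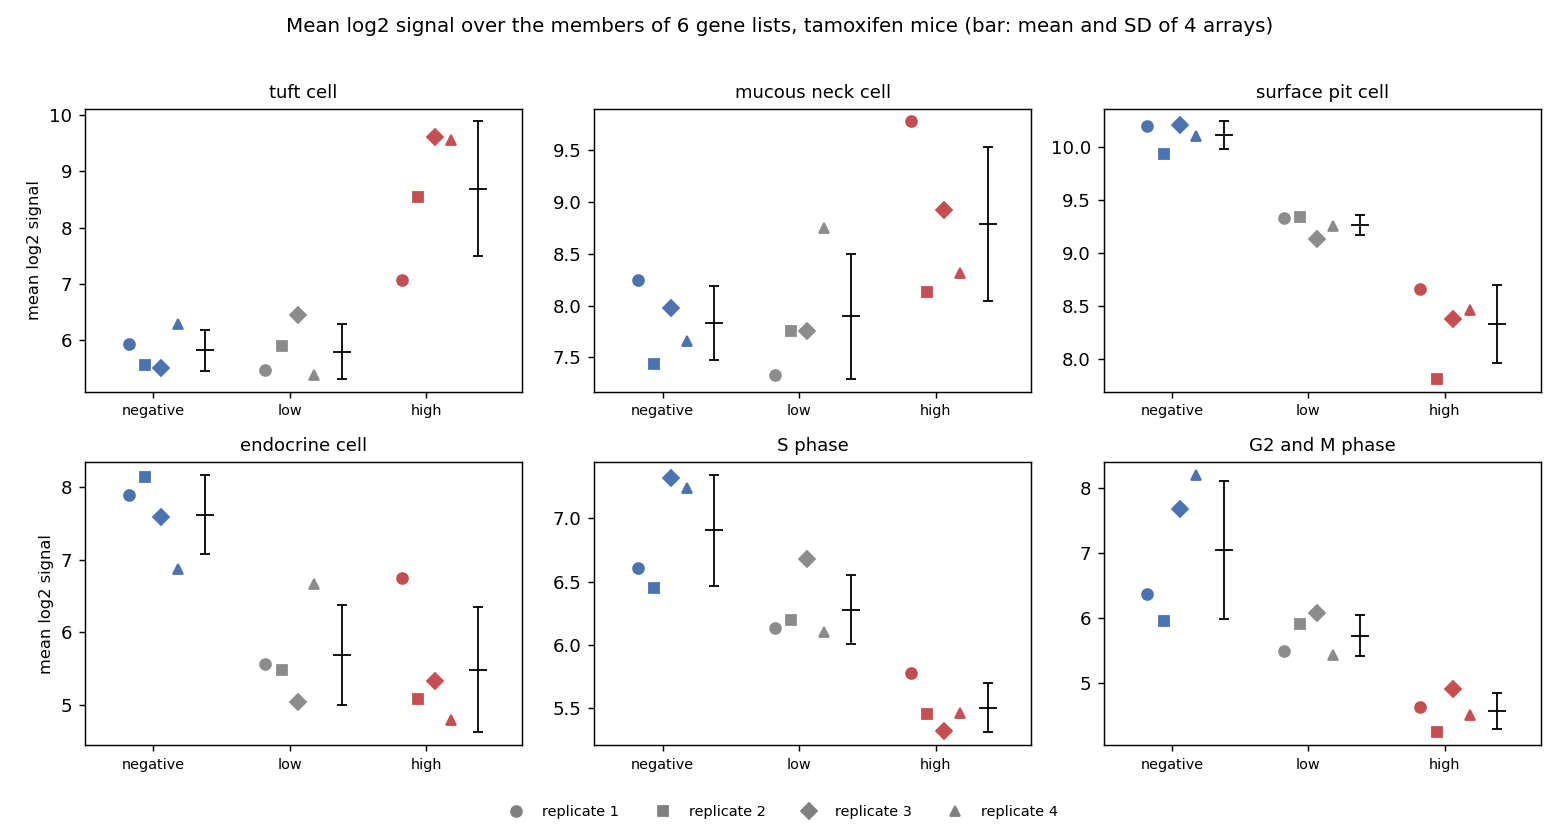
Mean log2 signal over the measured members of 6 gene lists (vertical axis) in the negative, low and high populations of tamoxifen mice, 1 symbol per array with the mean and SD of 4 arrays. Tuft cell scores are 7.06 to 9.61 in high samples and 5.37 to 6.44 in low samples, pit cell scores step down from negative to low to high, and the G2 and M phase scores of negative replicates 3 and 4 (7.67 and 8.20) stand above those of replicates 1 and 2 (6.37 and 5.95).

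Genes of cell division were lower in high cells almost without exception. All 19 measured G2 and M phase genes were called lower, with a median of -2.43, as were 19 of 23 S phase genes, with a median of -1.47. The promoters of 3 of the G2 and M phase genes the results turn on are shown because such genes share promoter motifs. Capitals mark CCAAT boxes (CCAAT, or ATTGG on the other strand) and the cell cycle homology region (TTTGAA, or TTCAAA on the other strand), and no printed match overlaps another. Each run holds the 250 bases before the gene start and 25 after it, 5′ to 3′ along the gene, from RefSeq on GRCm38.p6, and all 3 genes lie on the minus strand: Cdk1 at chr10:69352888-69353162, Ccnb2 at chr9:70421530-70421804 and Top2a at chr11:99024165-99024439.
Cdk1: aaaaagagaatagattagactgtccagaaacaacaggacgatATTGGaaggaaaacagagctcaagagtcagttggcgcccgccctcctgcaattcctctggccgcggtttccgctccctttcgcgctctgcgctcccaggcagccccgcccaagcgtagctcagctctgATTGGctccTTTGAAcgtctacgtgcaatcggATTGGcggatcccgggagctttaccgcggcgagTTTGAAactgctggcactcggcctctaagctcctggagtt
Ccnb2: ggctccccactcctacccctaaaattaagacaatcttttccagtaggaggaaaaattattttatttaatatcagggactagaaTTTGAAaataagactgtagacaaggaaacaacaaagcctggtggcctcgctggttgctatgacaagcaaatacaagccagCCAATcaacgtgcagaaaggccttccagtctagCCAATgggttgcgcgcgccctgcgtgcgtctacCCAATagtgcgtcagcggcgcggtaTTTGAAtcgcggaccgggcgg
Top2a: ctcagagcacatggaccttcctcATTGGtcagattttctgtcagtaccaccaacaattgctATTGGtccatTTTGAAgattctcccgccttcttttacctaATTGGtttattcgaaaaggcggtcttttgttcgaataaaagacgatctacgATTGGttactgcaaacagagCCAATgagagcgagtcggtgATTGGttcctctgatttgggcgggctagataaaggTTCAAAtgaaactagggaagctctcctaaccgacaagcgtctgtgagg

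A promoter was in the table for 15 of the 19 measured G2 and M phase genes, and 13 of the 15 (86.7%) held a CCAAT box on either strand, 8 (53.3%) the TTTGAA motif and 8 (53.3%) both. Over the 16990 tested genes with a promoter the shares were 40.3%, 17.0% and 6.5%. Of 19 S phase genes with a promoter, 13 (68.4%) held a CCAAT box and 3 (15.8%) the TTTGAA motif. These matches describe letters in the window and were not tested for binding.

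Cdk1, the kinase that drives entry into mitosis, was at 3.87, 3.47, 3.47 and 4.72 in high and 7.21, 7.31, 8.68 and 9.18 in negative samples (-4.21 ± 0.55, adjusted p = 4.6e-05, at least 15.3-fold). High replicates 1, 2 and 3 were under the background guide, and every negative sample was above every high sample. Ccnb2, a partner cyclin, was at 4.39, 4.68, 5.72 and 4.67 against 7.93, 6.71, 8.76 and 9.39 (-3.33 ± 0.58, adjusted p = 0.00069). Top2a, the topoisomerase of replicating cells, was at 4.68, 3.70, 5.18 and 4.40 against 6.72, 6.96, 8.47 and 9.18 (-3.34 ± 0.59, adjusted p = 0.00086). In the negative samples all 3 genes were higher in replicates 3 and 4 than in replicates 1 and 2. Mki67, the Ki-67 proliferation marker, differed by -2.66 ± 0.56 (adjusted p = 0.0033) and the spindle checkpoint kinase Bub1b by -2.43.

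In S phase the replicative helicase subunits Mcm5 (-2.10) and Mcm3 (-2.04) and the helicase partners Gins1 (-2.07) and Cdc45 (-1.83) had the smallest adjusted p-values. The 4 members that did not pass, named after their values were seen, were Ccne1, Slbp, Fen1 and Pold1. When single arrays were left out, 16 to 19 of the G2 and M phase genes and 16 to 20 of the S phase genes were called lower. The mean G2 and M phase signal was 4.24 to 4.90 in high, 5.43 to 6.08 in low and 5.95 to 8.20 in negative samples.

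Some lists tied to growth and metabolism moved less. Of 24 measured oxidative phosphorylation genes, 9 were lower, with a median of -0.48, led by Uqcrc2 (-0.77) and Cyc1 (-0.75), parts of complex III, Sdhd (-1.03), of complex II, and Ndufs1 (-0.80), of complex I. Of 18 ribosome biogenesis genes, 6 were lower (median -0.58), among them the RNA helicase Ddx21 (-1.11), the pseudouridine synthase Dkc1 (-1.17) and the nucleolar proteins Nip7 (-0.93) and Nolc1 (-0.92), the last call being lost without high replicate 4. Of 11 NRF2 targets, 3 were lower, with a median of -0.80 that was -0.49 without negative replicate 1. Without negative replicate 2 the number lower was 5, and in the blocked fit the median was -0.36 with 2 lower. Nqo1, a quinone reductase, was at least 13.0-fold lower, and Me1, malic enzyme, 2.76-fold. Gsr, glutathione reductase, was 1.77-fold lower, a call lost without high replicate 4 and in the blocked fit (-0.53, limma adjusted p = 0.077).

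Of 20 members of the BMP and TGF-beta list, 5 were lower and 3 higher, with a median of 0.12, and 4 of the 5 lower members were Id genes. Id1, an inhibitor of basic helix-loop-helix factors induced directly by BMP signalling, was at 6.17, 5.41, 5.87 and 6.12 in high and 8.85, 8.79, 8.97 and 8.94 in negative samples (-3.0 ± 0.29, adjusted p = 1.7e-06, 7.99-fold). The negative samples were close together, the groups did not overlap, and low cells lay between the groups at 7.36. Id3 differed by -2.49 and Id2 by -1.39. The other lower members were Id4 (-0.79) and the inhibitory Smad gene Smad7 (-0.94), and the higher members were the secreted BMP antagonist Sostdc1 (1.76, with overlapping groups), the ligand Bmp7 (0.87) and the receptor Bmpr2 (0.83). Id4, Smad7, Bmp7 and Bmpr2 were named after their values were seen. The Id4 call was lost without high replicate 3 or negative replicates 2 or 3, and the Bmp7 call without high replicates 1 or 3 or negative replicates 2, 3 or 4.

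The list of stomach transcription factors had a median of 0.09, beside 0.05 over all genes. The number higher was 4 to 5 with 1 array left out. With all arrays, 6 of 23 measured members were called higher and 0 lower, beside 3.33% and 6.97% over all genes. They were Ehf, an epithelial Ets factor (1.74 ± 0.23, adjusted p = 4.3e-05), Sox2, a stomach progenitor factor (1.70 ± 0.32, adjusted p = 0.0013), Runx1, Spdef, Bhlha15 and Foxa3 (0.86, adjusted p = 0.037). Foxa3 was named after its value was seen, and its call was lost without high replicates 1 or 2 or negative replicates 1, 2 or 4, and in the blocked fit (adjusted p = 0.053). Sox2 was at 8.17, 8.66, 9.24 and 7.65 in high and 6.84, 5.82, 7.02 and 7.25 in negative samples, without overlap. In the Notch list, Lfng, a glycosyltransferase that modifies Notch receptors (1.42), and the ligand Dll1 (0.63) were the 2 of 16 members higher. Over all genes 3.33% were higher, and the Notch count is read no further. Dll1 was at a limma adjusted p of 0.052 in the blocked fit.

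The keratin and cornified envelope list had 3 of 14 members lower. Sprr1a, a small proline-rich protein induced in stressed epithelium, was at 9.81, 8.33, 8.54 and 9.16 in high and 11.51, 11.34, 11.58 and 11.68 in negative samples (-2.57 ± 0.32, adjusted p = 2.9e-05). In low cells it was at 11.26 to 11.76, level with the negative cells. Krt19, a simple epithelial keratin, was 3.03-fold lower, and Sprr2f was also lower (-1.35), a call lost without negative replicate 1 or 3 and in the blocked fit (-1.09, limma adjusted p = 0.076). The list's median of -0.38 was -0.21 with the block. Without negative replicate 4 the number lower was 5. Among claudins and junction genes, Cldn7 (1.59), Cldn10 (1.12), Cldn3 (1.01) and, named after its value was seen, Marveld3 (0.76) were higher and Cldn18 was lower, of 20 measured. The Cldn3 call was lost without high replicate 3 or negative replicates 1 or 4 and in the blocked fit (0.81, limma adjusted p = 0.078), and without negative replicate 4 the number higher was 2. The Marveld3 call was lost without high replicates 1 or 4 or negative replicates 3 or 4.

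The metaplasia and injury list had no common direction, with 4 of 18 members higher and 3 lower. Higher were Gkn3 and Sox9, Pigr, the polymeric immunoglobulin receptor (4.15-fold), and Reg3g, an antimicrobial lectin (6.34-fold, adjusted p = 0.0033). Lower were Aldh3a1, an aldehyde dehydrogenase (11.8-fold), Wfdc2 and Mal2, a membrane trafficking protein (2.09-fold). Reg3g and Mal2 were named after their values were seen. Clu, the clusterin gene, was at 11.92 to 12.09 in high and 11.90 to 12.07 in negative samples (0.04 ± 0.13, adjusted p = 0.89).

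Each of 4 stress and signalling lists had 2 called members, beside 3.33% higher and 6.97% lower over all genes; at these list sizes the counts are read no further. Klf4, a transcription factor of differentiated epithelium (-1.94), and the small heat shock gene Hspb1 (-1.93) were the 2 lower of 24 immediate early and heat shock genes, while Plk2 (1.92) and the death receptor gene Fas (1.28) were the 2 higher of 16 p53 targets. Xbp1, the transcription factor of secretory capacity (0.85), and Dnajb9, a chaperone of the endoplasmic reticulum (0.74, lost without high replicate 4 or negative replicate 3 and at a limma adjusted p of 0.084 in the blocked fit), were the 2 higher of 24 protein folding genes. The number of protein folding genes higher was 1 without negative replicate 3 and in the blocked fit. In the EGFR and MAPK list the ligand Nrg4 (0.89) and the feedback phosphatase Dusp6 (1.05) were the 2 of 19 higher. Without high replicate 1, 3 members were higher and 2 lower. With the block, 4 p53 targets were higher, and 2 immediate early and heat shock genes were higher and 3 lower.

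Il18, an epithelial cytokine, was at 5.64, 4.72, 5.64 and 4.69 in high and 8.17, 8.88, 9.16 and 8.70 in negative samples (-3.56 ± 0.39, adjusted p = 7e-06). It was 1 of 2 lower among 18 inflammatory genes, and the other, Tnf (-0.81), lost its call without high replicate 1 or negative replicates 1, 2 or 3 and in the blocked fit (-0.69, limma adjusted p = 0.13). Of 20 secretory granule genes, Tmed6, a cargo receptor (1.66), was higher, and the synaptotagmin-like Sytl2 (-4.00) and Cplx2 (-0.74) were lower. Cplx2 lost its call without high replicate 3 or negative replicates 1, 2 or 3, and the counts ranged from 1 to 3 higher and 1 to 4 lower when single arrays were left out, and were 2 and 3 with the block. Grn, the progranulin gene (0.74), was the 1 of 17 lysosome genes that passed. Its call was lost without high replicates 2 or 3 or negative replicate 4, and 4 lysosome genes passed without high replicate 4 and 3 in the blocked fit. Over all genes 3.33% were higher and 6.97% lower, and the counts of the inflammatory, secretory granule and lysosome lists are read no further.

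In the antigen presentation list, H2-Aa (-1.13) was lower and Tapbp (0.70) higher of 12 members, beside 6.97% lower and 3.33% higher over all genes. Both calls were lost when single arrays were left out: H2-Aa without high replicates 2 or 4 or negative replicates 3 or 4, and Tapbp without high replicates 2, 3 or 4 or negative replicates 2, 3 or 4. H2-Aa differed by -0.75 without negative replicate 3. With the block, 2 members were higher and 2 lower. For cholesterol synthesis limma called 0 of 14 genes, with 2 at an unadjusted p under 0.05. For the interferon response it called 0 of 17, with 0 at that unadjusted level. Over all 22180 genes, 5205 were at that level. The median of the interferon list was -0.02, and 0.43 without high replicate 1.

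Markers of connective tissue, vessels and squamous epithelium were near background. In the fibroblast and smooth muscle list 9 of 16 measured members, in the endothelial list 7 of 12 and in the squamous list 8 of 11 had means at or under the background guide in both groups. Col1a1, a fibrillar collagen gene, was at 3.94 to 4.44 in high and 3.82 to 4.23 in negative samples, and Pecam1, the endothelial antigen CD31, at 3.73 to 5.09 and 3.67 to 4.56. Tek, the angiopoietin receptor gene, was at 4.17, 6.03, 6.10 and 5.66 against 3.77, 3.36, 3.32 and 3.38 (2.03 ± 0.42, adjusted p = 0.0028). Kdr, a VEGF receptor gene, passed at 0.51 with both means under the background guide, and its call was lost without high replicate 4 or negative replicates 2, 3 or 4 and in the blocked fit (0.44, limma adjusted p = 0.079). Without high replicate 1, 4 endothelial genes passed. Dcn, the decorin gene, was the called fibroblast marker (0.96), also with both means under the guide, and without high replicate 3 the number called was 2. In the squamous list Ivl, involucrin, was lower (-1.35) and Sbsn, suprabasin, higher (0.67).

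**Figure D3:**
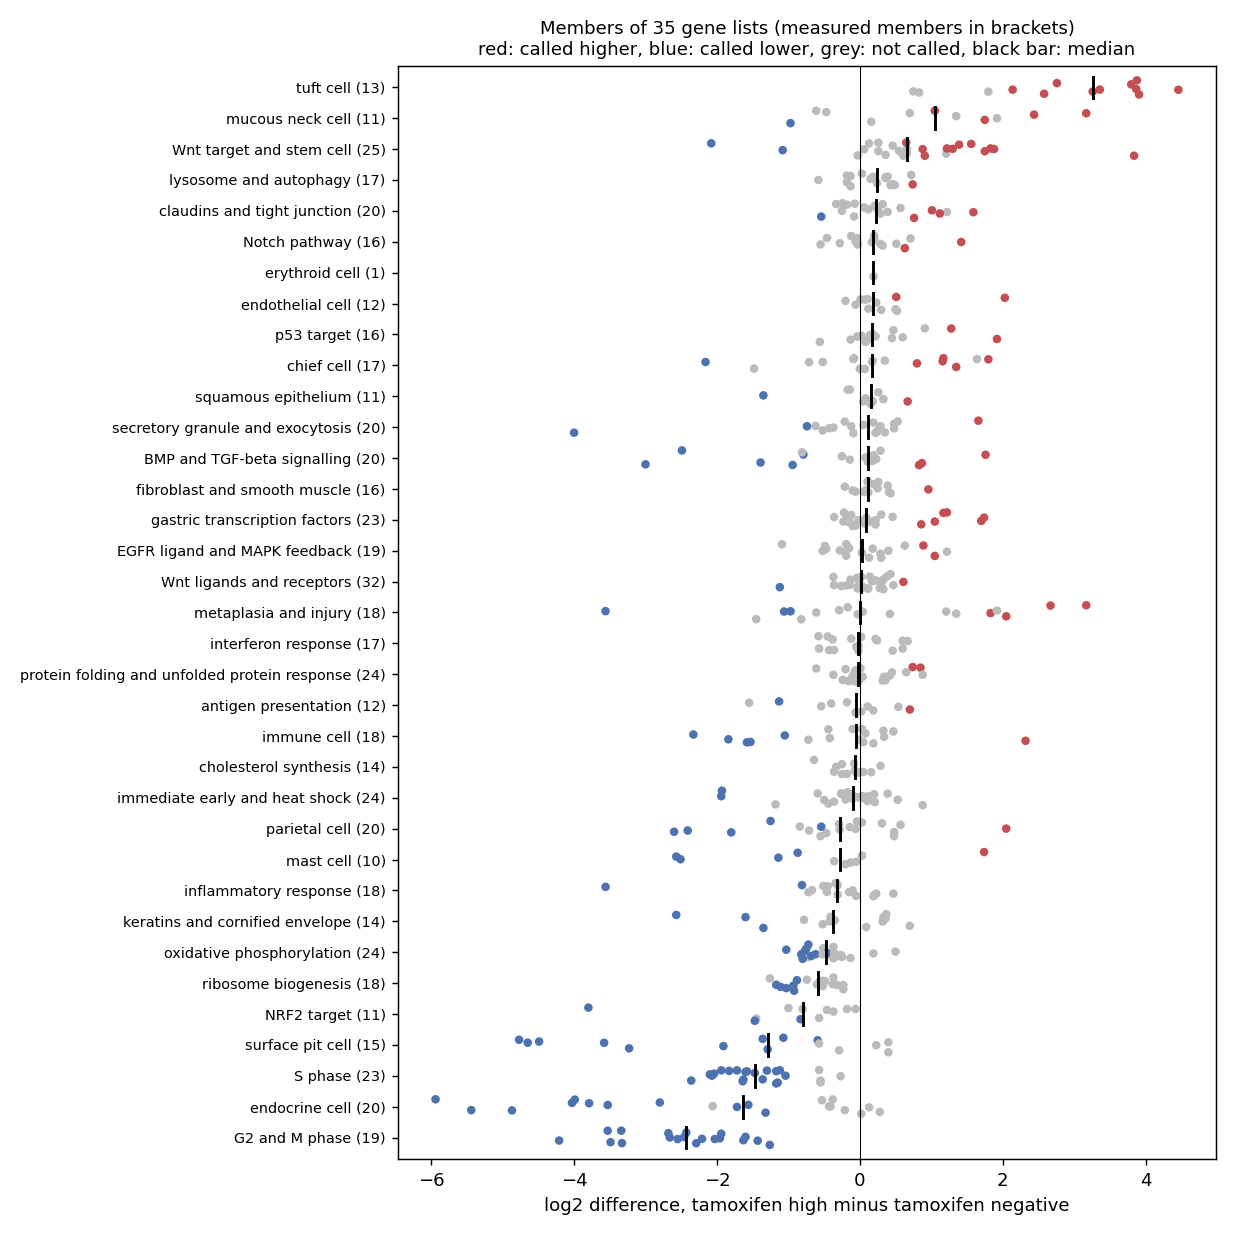
Log2 differences, high minus negative in tamoxifen mice (horizontal axis), of the measured members of 35 gene lists, ordered by list median (black bar), with 1 point per gene: red called higher, blue called lower, grey not called. The tuft cell list lies farthest to the right (median 3.26) and the G2 and M phase list farthest to the left (median -2.43), with the endocrine (-1.64), S phase (-1.47) and pit cell (-1.29) lists next to it.

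Most of this pattern was also present without tamoxifen. In the uninjected mice, 1030 genes (4.64%) were higher and 1698 (7.66%) lower in high than in negative cells. These arrays are not shared with the tamoxifen comparison. Of the genes higher in tamoxifen mice, 434 were also higher in controls, which is 58.8% of the tamoxifen list and 42.1% of the control list. Of the lower genes, 845 were shared, 54.7% and 49.8% of the lists. In limma 0 genes were called in opposite directions, and 38 had opposite signs at an unadjusted p under 0.05 in both. Across the 22180 genes, which are not independent replicates, the differences in tamoxifen and in control mice correlated with a Pearson r of 0.73. Without control high replicate 1 or control negative replicate 3, the control count of lower genes was 1116 or 1122. With the title number as a block, 1167 genes were higher and 1950 lower in control high cells.

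In controls the tuft list again had the highest median and the G2 and M phase, S phase and pit cell lists the lowest, while the neck and endocrine lists took other places. There, 11 tuft markers were higher (median 3.45), 10 pit markers lower (median -1.69), 19 G2 and M phase genes lower (median -3.11) and 18 S phase genes lower (median -1.80). The mucous neck list had a median of -0.59 with 1 member higher in controls, beside 1.05 in tamoxifen mice. Spdef differed by -0.01 and A4gnt by -0.37 there, beside 1.05 and 2.44. The mean signal of the neck list was 8.68 in control high and 8.79 in tamoxifen high samples. In the negative samples it was 8.89 in control and 7.83 in tamoxifen mice. A4gnt had means of 9.17 in control high and 8.27 in tamoxifen high, and of 9.54 and 5.83 in the negative samples. Spdef had means of 8.34 and 8.53 in high, and of 8.34 and 7.48 in negative samples. The endocrine list had 5 lower members in controls (median -0.50). The test of the difference between tamoxifen and control mice called no neck or endocrine member. An unadjusted limma p under 0.05 in it was reached by 4 of 11 and 9 of 20 members, beside 1794 of all 22180 genes. Members of a list are not independent, and these counts are read no further.

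That test, the interaction term, called 55 genes in limma. The high minus negative difference was more positive in tamoxifen than in control mice for 22 (0.0992%) and more negative for 33 (0.149%). These terms follow the sign and not the size: Dmbt1, at -0.17 in tamoxifen and -3.94 in control mice, counts as more positive. Of the 55, 20 were called in tamoxifen mice alone, 25 in control mice alone and 10 in both. The estimates in tamoxifen and control mice had opposite signs in 26. Some of these estimates were very small, and no gene was called in opposite directions. With the title number as a block 40 were more positive and 35 more negative, including 18 of the 22 and 20 of the 33. These counts also depended on single arrays. The more positive count ranged from 5 without control negative replicate 2 to 57 without tamoxifen high replicate 4. The more negative count ranged from 4 without control negative replicate 2 to 224 without tamoxifen negative replicate 4. Leaving out any of tamoxifen high replicate 2, tamoxifen negative replicates 1, 2 or 3, control high replicates 1, 2 or 3, or control negative replicates 1 or 3 also moved a count by over 1.5 times, to values within those ranges. Since no vehicle-injected mice are among the samples, the drug, the injection and the sorting runs cannot be told apart in this term.

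Hamp had the largest difference of all 22180 genes and the largest interaction of the genes named. It encodes hepcidin, the peptide hormone that limits iron export and that the stomach makes at low level beside the liver. In tamoxifen mice it was at 2.24, 2.86, 3.90 and 2.64 in high and 10.13, 10.82, 10.09 and 9.94 in negative cells, at least a 67.9-fold difference (-7.33 ± 0.36, adjusted p = 6.1e-11). In control mice it was at 2.36, 1.62 and 2.17 in high and 2.50, 2.57 and 1.99 in negative cells, under the background guide throughout. The low tamoxifen samples were at 8.32, 6.13, 7.17 and 7.03. Hamp was thus measured above background in the negative and low populations of tamoxifen mice but not in the high population, and the interaction was -7.04 (adjusted p = 8.9e-07; at most 9.8e-06 with any 1 array left out).

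The other genes named for a more negative difference in tamoxifen mice were Serpina7, Vtn, Ahsg and Pwwp3b. Serpina7, thyroxine-binding globulin, was at 3.33, 3.2, 3.68 and 3.04 in high and 8.49, 8.08, 7.63 and 7.47 in negative samples (-4.61 ± 0.24, adjusted p = 1.1e-10), and at 3.73, 3.78 and 4.72 in control negative samples (interaction -3.58, adjusted p = 5.2e-05). Unlike Hamp, it was at 3.07 in the low population. Vtn, the adhesive glycoprotein vitronectin, was at 4.45, 4.50, 4.36 and 5.21 against 11.27, 11.44, 10.83 and 9.24 (-6.06 ± 0.38, adjusted p = 2.3e-09). It was also lower in control high cells (-3.28), and its interaction of -2.78 (adjusted p = 0.047) was lost when any array was left out other than tamoxifen high replicate 4 or tamoxifen negative replicate 4. Ahsg, fetuin-A, differed by -3.87 in tamoxifen and -0.49 in control mice (interaction -3.38, adjusted p = 0.02), a call lost without control high replicates 1 or 2 or control negative replicates 1 or 2, and in the blocked fit (-3.03, limma adjusted p = 0.062). Pwwp3b, a gene of the PWWP domain family, differed by -3.42 and -0.70 (interaction -2.71, adjusted p = 0.0052).

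Mmp7, the matrix metalloproteinase matrilysin of glandular epithelium, went the other way. It was at 8.03, 8.16, 8.33 and 6.95 in tamoxifen high and 3.80, 4.24, 4.37 and 3.72 in tamoxifen negative cells, at least a 13.1-fold difference (3.83 ± 0.28, adjusted p = 2.4e-08). In controls the high samples were at 3.85, 3.75 and 3.90 and the negative samples at 3.45, 3.60 and 3.48. The low tamoxifen samples, at 6.58, 6.20, 5.18 and 6.59, lay between, and high cells exceeded low cells by 1.73 (adjusted p = 0.0014). Mmp7 was therefore above the background guide in every high and low sample of tamoxifen mice and under it in all control high and control negative samples. The interaction was 3.51 (adjusted p = 4e-04; at most 0.0027 with any 1 array left out).

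The remaining interaction genes named were those whose negative population was high in control mice. Dmbt1, a secreted scavenger receptor of mucosal epithelium, was at 10.55, 10.45, 10.24 and 8.88 in tamoxifen high and 9.98, 10.31, 10.45 and 10.05 in tamoxifen negative cells (-0.17 ± 0.46, adjusted p = 0.87). In control mice it was at 4.23, 5.39 and 5.95 in high and 9.0, 8.95 and 9.44 in negative cells, so the control high samples were the only 3 of these 14 that were low. Its interaction of 3.77 (adjusted p = 0.023) was lost without tamoxifen high replicate 2, tamoxifen negative replicate 2, control high replicates 1 or 2, or any of the control negative replicates. Gsdmc2 and Gsdmc3, pore-forming gasdermins, had means under the background guide in both tamoxifen groups and in control high cells, and means of 5.75 and 5.24 in control negative cells (interactions 3.08 and 3.01). The mast cell protease Mcpt2 was at 4.15 to 5.79 in tamoxifen negative and 7.58 to 8.87 in control negative cells (interaction 3.52, adjusted p = 0.011, lost without control negative replicate 2). Of 10 mast cell markers, 4 were lower in tamoxifen high than negative cells, namely Mcpt2, Mcpt1 (-2.57), Cpa3 (-1.14, with both means under the background guide, which leaves no measured fold) and, named after its value was seen, Tpsb2 (-0.87, lost without tamoxifen negative replicate 3). The stem cell factor receptor gene Kit, also a mast cell marker, was higher (1.74). The mean of the mast cell list was 3.19 to 3.43 in tamoxifen high, 3.46 to 4.25 in tamoxifen negative and 4.67 to 5.40 in control negative samples; its part in these results was not tested.

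**Figure D4:**
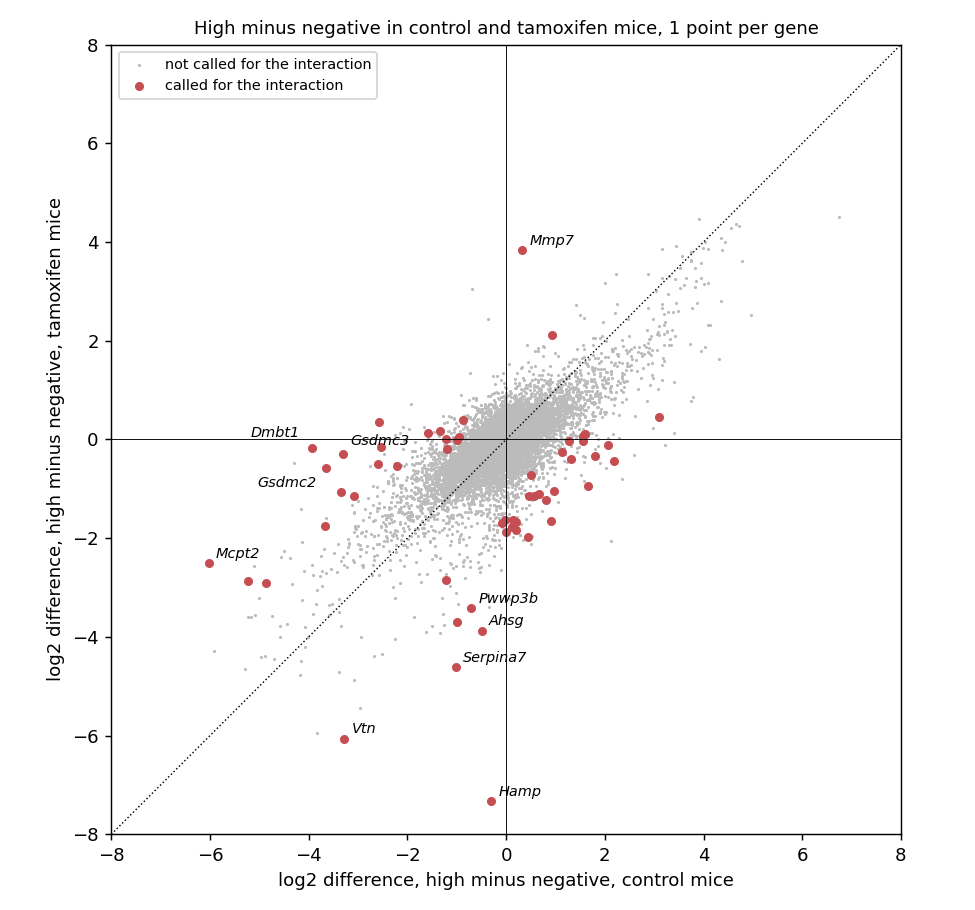
Log2 difference, high minus negative, in tamoxifen mice (vertical axis) against that in control mice (horizontal axis), 1 point per gene over 22180 genes, with the 55 genes called for the interaction in red and the line of equal differences dotted. Most points follow the line (Pearson r = 0.73 across genes); Hamp lies at -7.33 and -0.30, Mmp7 at 3.83 and 0.32 and Dmbt1 at -0.17 and -3.94.

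The comparison of high with low cells shares the 4 high arrays with the comparison above, so the values are only set side by side. High exceeded low for 323 genes (1.46%) and was below it for 392 (1.77%). Without high replicate 1 these were 511 and 607 genes, and with the title number as a block 386 and 578. Without high replicate 3 the first was 210, and without low replicates 1, 2 or 3 the second was 146, 206 or 252. For the 738 genes higher in high than in negative cells, the low mean lay between the other means in 590, nearer the negative mean in 503 (68.2%), and its median position was 0.289 of the way from negative to high. For the 1545 lower genes it lay between in 1274, nearer the negative mean in 794 (51.4%), with a median position of 0.483. By gene, low cells stood with the negative cells for the tuft markers and Sprr1a, with the high cells for Cblif, Mug1, Hdc and Serpina7, and between both for Lgr5, Id1 and Cdk1.

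Other genes with very large negative differences were Cel, the carboxyl ester lipase gene, at 4.75, 4.00, 5.17 and 3.99 in high and 10.36, 9.22, 8.99 and 8.19 in negative samples (-4.71 ± 0.34, adjusted p = 2.2e-08), Sptssb, a subunit of serine palmitoyltransferase (-4.45 ± 0.22, adjusted p = 6.1e-11), and Teddm3 (-4.41 ± 0.65, adjusted p = 0.00016). For Sptssb the high samples lay at 3.84 to 4.34 and the negative samples at 8.05 to 8.74. Teddm3 was at 6.48 in high replicate 1 and 3.03 to 3.91 in the other high samples, with negative samples at 7.76 to 9.18. All 3 were also lower in control high cells, by -3.39 for Cel, -4.69 for Sptssb and -4.97 for Teddm3.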

How the data were processed

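RNA from sorted corpus cells was measured on 21 single-channel arrays in 6 groups. The authors deposited log2 signal per probe set; the scale was inferred from the values, which run from 0.958 to 13.55. The submitters' processing notes name RMA, oligo, limma 3.26.8 and R 3.2.3, without saying what each did; the genome build is not given in the sources used here. Of 41345 probe sets, 25335 were in the platform's gene table, 23521 with 1 gene and 1814 with several, and 16010 were not. For 23328 probe sets the gene number was matched to a RefSeq symbol, which was used whether or not it differed. For 1082 genes with several rows the row with the highest mean was kept, which left 22180 genes, with no filter on level.

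Group means were fitted in limma 3.58.1 under R 4.3.3 (lmFit, eBayes; 15 residual and 5.27 prior degrees of freedom), two-sided, with Benjamini-Hochberg adjustment over all genes and calls under 0.05. The fit was tested on simulated data. The number of arrays limits the precision. Groups came from the array titles. The design text ties replicates to sorting runs, and the title numbers may mark them; they were used as a block in an alternative fit. Deviations from the group means in arrays of the same number correlated over genes at -0.04, 0.07 and -0.16 between high and negative, -0.07, 0.10, -0.11 and 0.11 between high and low, and -0.10, 0.22 and 0.50 between low and negative samples. The source name of the control negative arrays says low where their titles and characteristics say negative.

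The comparison, its lists and the naming rule were chosen with earlier results of these data known. The rule names the 12 largest differences each way among called genes whose groups do not overlap, up to 4 called members of each of 35 lists by adjusted p, a panel of markers, and the 5 largest interactions each way; predicted, small RNA, receptor-family and antigen receptor genes were left out. Of 655 list entries 608 were measured. Genes named outside the rule are marked as named after their values were seen. Promoters came from RefSeq on GRCm38.p6, matched by symbol for 16990 genes.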

Additional observations from a re-analysis of the deposited data

Results flagged for a closer look

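Among 336 sets of 4 arrays checked (named genes and list means in the tamoxifen high and negative groups), 25 had a sample farther from the other 3 than Dixon's 95% critical value allows. Chance gives this in about 1 in 20 sets. High replicate 1 and negative replicate 4 account for 7 each. High replicate 1 stood apart for Pnliprp2 (10), Pcsk1 (6.10), Mcm3 (6.33), Plk2 (7.02), Dusp6 (9.74), Tff2 (12.63) and the mean of the interferon list (4.83). Negative replicate 4 stood apart for Chga (11.09), Cplx2 (5.50), Tnf (4.85), Gsdmc2 (3.81) and the means of the protein folding (8.09), metaplasia (7.10) and lysosome (8.03) lists.

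The remaining arrays gave fewer such values. High replicate 3 stood apart for Klf4 (7.85), Atp4b (8.59) and the Wnt ligand and receptor list (4.79), and high replicate 4 for Vtn (5.21), Kdr (4.45) and the claudin list (6.54). Negative replicate 2 stood apart for Car2 (10.52), A4gnt (4.56) and Nolc1 (7.56), high replicate 2 for Mcpt2 (3.11) and negative replicate 1 for Tek (3.77).

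The difference between high and negative cells itself differed between tamoxifen and control mice for the 10 genes named from the limma interaction term. It was more negative in tamoxifen mice for Hamp (-7.04), Serpina7 (-3.58), Ahsg (-3.38), Vtn (-2.78) and Pwwp3b (-2.71), and more positive for Dmbt1 (3.77), Mcpt2 (3.52), Mmp7 (3.51), Gsdmc2 (3.08) and Gsdmc3 (3.01). The calls for Vtn, Ahsg, Dmbt1 and Mcpt2 were lost when single arrays were left out.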

How the results depend on the processing

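The 12 alternatives were cyclic loess, averaging all rows of a gene, a trended and robust eBayes, array weights, fits on 4 or 2 groups, a 2-fold minimum, leaving out the dimmest 25% of genes, the title number (run) as a fixed or random block, the shared runs 2, 4 and 28, and the replicate number as a block; 1 array at a time was also left out. No called named gene or named interaction changed direction, and neither did the median of any list in which most members were called. The direction of the other called genes was not compared across settings. Of 121 named genes called, 104 kept the call whichever of the 8 arrays was left out. Other settings lost at most 23 calls (fit on the 2 groups alone).

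Genes higher and lower in tamoxifen high cells numbered 267 and 671 in the fit on the 2 groups alone, 338 and 757 at 2-fold or more, and 474 to 900 and 954 to 1757 with 1 array left out. For the control mice the counts were 2018 and 2792 with array weights and 658 and 1042 at 2-fold or more; the lower count was 1116 to 1603 with 1 array left out. High exceeded low for 193 genes with array weights, 138 in the fit on 2 groups, 204 in the shared runs and 210 to 511 with 1 array left out; it was below low for 250 with cyclic loess, 144 with array weights, 107 in 2 groups, 139 at 2-fold or more, 238 in the shared runs and 146 to 607 with 1 array left out. More positive and more negative interactions numbered 58 and 114 with array weights and 8 and 8 in the fit on 4 groups. With 1 array left out they numbered 5 to 57 and 4 to 224. The more negative count was 21 with cyclic loess. The more positive count was 36 with run as a random block and 51 in the shared runs. The causes were not tested, beyond there being fewer arrays or a fold minimum in some settings. The fit on 2 groups gives no interaction, and the shared runs apply to tamoxifen arrays only.

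Whether the title numbers pair the samples is not settled by the labels or by the correlations of same-numbered arrays. With the run number as a block 940 genes were higher and 1535 lower, and 40 interactions were more positive. In that fit 12 named calls were lost, each given beside its result, and Axin2 passed. Same-replicate deviations of high and negative samples correlated at 0.08, -0.07, 0.19 and 0.33. With the replicate number as a block 822 were higher and 1673 lower, and no named call was lost. The consensus correlation within runs was 0.0749.

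Signal under the background guide limits the folds given as lower bounds.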
